A study of Saccharomyces cerevisiae with 12 samples.

Results

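CpG methylation by the bacterial methyltransferase M.SssI was compared between a 4 h aliquot and a 3 h aliquot of the same reaction, in chromatin from budding yeast (Saccharomyces cerevisiae). All 12 libraries of the series entered, as 6 pairs from 6 chromatin preparations, and the comparison asked where on the genome methylation still increased in the last 60 min. Each reaction received 4000 U of M.SssI at its start and another 4000 U after 90 min. The 3 h aliquot was withdrawn at 180 min, and the 4 h aliquot is what remained in the tube until 240 min. Both aliquots of a pair therefore shared cells, crosslinking and enzyme, and differed in time, in the plasmid pFMP233 that was added to the 4 h aliquot at 180 min, and in library and sequencing.

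The 6 preparations covered 3 constructs with 2 biological replicates each, and each replicate started from a separate transformed clone of 1 Abf1 anchor-away strain. In that strain the chromosomal ABF1 carries a tag by which rapamycin tethers the protein to a ribosomal subunit and takes it out of the nucleus. All cultures, at 4 h and at 3 h alike, had received rapamycin at 8 µg/mL during 75 min and had been fixed with formaldehyde. The constructs on the pRS315 plasmid were wild-type ABF1 (WT Abf1), nothing (no Abf1) and an Abf1 variant with a shuffled essential motif (EM shuffle). WT Abf1 and no Abf1 share the earlier of the batches named in the labels and EM shuffle is alone in the later batch, so that this construct and its batch cannot be told apart.

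M.SssI transfers a methyl group to the cytosine of any accessible CpG, and yeast has no CpG methylation of its own. A CpG wrapped in a nucleosome or covered by another protein in fixed chromatin is largely protected, so the methylated share of reads at a site measures how often that site was open. Nucleosome-depleted promoters are the most open part of a yeast chromosome, coding sequences are packed into regular nucleosome arrays, the actively transcribed rRNA genes are mostly free of nucleosomes, and mitochondrial DNA carries none, being coated by the HMG-box protein Abf2. Genes transcribed by RNA polymerase III, such as tRNA genes, are occupied by the factors TFIIIC and TFIIIB. TFIIIC contacts promoter elements inside the transcribed sequence, called the A and B boxes, and TFIIIB sits just upstream of it.

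The sequences of 5 regions are printed: the 2 tRNA genes of lowest p and the 2 promoter windows of lowest p outside the rDNA repeat in the comparisons described below, and SNR6, which shares the RNA polymerase III machinery with the tRNA genes. They come from the RefSeq R64 genome, each 5′ to 3′ on the strand of its gene, and capitals mark the CpG dinucleotides that were measured. The tRNA genes are a tRNA-Ala gene at chrXI:219895-219967 and a tRNA-Asn gene at chrIII:127716-127789, both on the plus strand. The windows 250 to 51 bp upstream of the start codons of GLK1 (glucokinase) and NHP6A (an HMG-box chromatin protein) lie at chrIII:50588-50787 on the plus strand and chrXVI:666025-666224 on the minus strand. SNR6, the U6 spliceosomal RNA gene, lies at chrXII:366235-366346 on the plus strand.
YNCK0008W: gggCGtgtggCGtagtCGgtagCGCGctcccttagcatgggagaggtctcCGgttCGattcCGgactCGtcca
YNCC0005W: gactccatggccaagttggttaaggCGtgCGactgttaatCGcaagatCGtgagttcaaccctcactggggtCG
GLK1: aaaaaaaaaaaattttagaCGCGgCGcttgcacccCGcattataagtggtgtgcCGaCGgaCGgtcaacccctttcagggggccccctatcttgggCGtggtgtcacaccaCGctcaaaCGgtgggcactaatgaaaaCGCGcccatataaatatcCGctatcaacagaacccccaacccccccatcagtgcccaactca
NHP6A: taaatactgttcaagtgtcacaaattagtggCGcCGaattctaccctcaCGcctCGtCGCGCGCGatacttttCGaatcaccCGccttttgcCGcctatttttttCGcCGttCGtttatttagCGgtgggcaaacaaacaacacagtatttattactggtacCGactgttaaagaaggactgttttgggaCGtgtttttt
SNR6: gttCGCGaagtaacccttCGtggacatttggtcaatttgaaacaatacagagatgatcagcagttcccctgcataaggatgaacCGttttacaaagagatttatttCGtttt

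The libraries held 13253872 to 37756743 methylation calls at nuclear CpG sites, with a median of 32 to 94 calls per site, and 353646 of 354295 nuclear sites (99.8%) and all 1004 mitochondrial sites had at least 5 calls in every library. Coverage went against the label of 1 construct: relative to the nuclear median, the plasmid marker LEU2 was at 0.104 to 0.308 in the 4 libraries of EM shuffle, against 0.462 to 1.02 in the other 8, and chromosome XI as a whole reached 2.03, against 0.984 to 1.03. These 4 are called the libraries labelled EM shuffle, and the values of the earlier batch alone are given beside the main results. The URA3 gene had no coverage in any library, and ABF1 stood at 1.81 to 2.10 in WT Abf1, 0.852 to 1.07 in no Abf1 and 1.04 to 2.04 in the 4 libraries labelled EM shuffle. ABF1 lies on chromosome XI, and in WT Abf1 it exceeded that chromosome, which stood at 0.984 to 1.03. In replicate 2 labelled EM shuffle ABF1 stood at 1.85 at 4 h and 2.04 at 3 h, beside 1.97 and 2.03 for the chromosome. In replicate 1, whose chromosome XI was less raised, ABF1 stood at 1.29 at 4 h, above its chromosome. At 3 h it stood at 1.04, below its chromosome. None of these 4 libraries showed an excess of ABF1 over its chromosome as large as in WT Abf1. The reason was not tested.

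Nuclear methylation was higher at 4 h in all 6 preparations. The mean over nuclear CpG sites ranged between 24.9% and 30.4% in the 4 h libraries, with a median of 28.4%, against 23.4% to 29.1% with a median of 27.1% in the 3 h libraries. Levels overlapped between the times, since preparations differed by more than aliquots, and the change stood out within pairs. It averaged 1.46 ± 0.135 percentage points (SD, n = 6; range 1.31 to 1.67). A two-sided exact sign-flip permutation test gave p = 0.031, and no smaller p can be had from 6 pairs. The test gives this p whenever all 6 differences have the same sign, whatever their size or spread. The gain was 1.44 percentage points in WT Abf1, 1.38 in no Abf1 and 1.57 in the libraries labelled EM shuffle, and the earlier batch alone gave 1.41. Expressed as odds of methylation, the nuclear change was 0.11 ± 0.014 on the log2 scale (SD, n = 6). Site by site, 68.1% of nuclear CpG sites had a higher mean over the 6 preparations at 4 h.

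How far a site still had to go depended on its level at 3 h. Sites were sorted into bands of 10 percentage points by their 3 h level in the 5 other preparations, so that counting noise in the measured pair did not enter the sorting. Among the bands up to 90%, the mean gain over the 6 preparations was smallest at the closed end. It was 0.692 ± 0.138 percentage points for sites below 10% (8.08% at 4 h against 7.39% at 3 h). It was 1.23 ± 0.125 in the band from 10 to 20%, 1.65 ± 0.15 from 20 to 30% and 2.02 ± 0.189 from 30 to 40%. Sites of intermediate openness gained most, with 2.15 ± 0.288 from 40 to 50% and 2.18 ± 0.407 from 50 to 60%, a band at 56.3% at 4 h against 54.2% at 3 h. The gain then shrank to 2.07 ± 0.56, 1.59 ± 0.584 and 0.989 ± 0.61 in the next bands up to 90%. All of these were positive in 6 of 6 preparations (SD, n = 6; exact sign-flip permutation test, adjusted p = 0.0341). In the band above 90%, with 366 sites on average, the gain of 0.58 ± 0.619 was positive in 5 of 6 preparations and did not pass (adjusted p = 0.0625).

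The middle of the range, from 30 to 70%, gained 1.40 ± 0.348 percentage points more than sites below 10%, and 1.12 ± 0.356 more than sites above 80%, each in 6 of 6 preparations (exact sign-flip permutation test, adjusted p = 0.0341). At the open end the batches stood apart. The band from 80 to 90% gained 1.72 percentage points in the libraries labelled EM shuffle and 0.622 in the earlier batch. In the earlier batch alone the gains from the lowest band to the highest were 0.743, 1.27, 1.62, 1.94, 1.99, 1.95, 1.72, 1.23, 0.622 and 0.379 percentage points. Measured instead as a share of what was still unmethylated at 3 h, a measure that divides by a smaller number where sites are more open, the gain was 0.749% below 10%, 2.18% from 20 to 30%, 4.73% from 50 to 60% and 6.16% from 70 to 80%. On the log2 odds scale the change was nearly level across the range, between 0.12 and 0.14 for every band up to 80%, and 0.10 ± 0.057 and 0.09 ± 0.091 in the bands above.

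**Figure D1:**
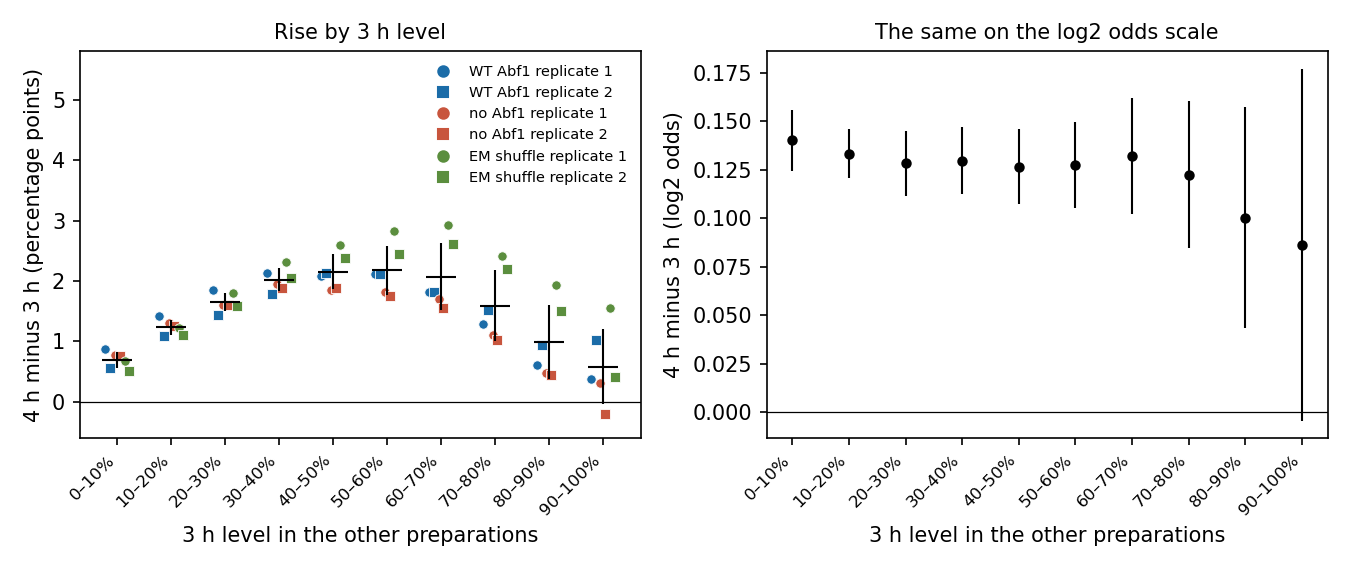
Change in CpG methylation by 3 h level, with the bands of 3 h level taken from the 5 other preparations on the x axis. Left, the difference 4 h minus 3 h in percentage points, 1 point per preparation with mean and SD (n = 6): it is highest, at 2.18, between 50 and 60% and falls off on both sides. Right, mean and SD of the same change in log2 odds, which lies between 0.09 and 0.14.

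Nuclear CpG sites were divided into 9 exclusive classes of sequence, and mitochondrial DNA formed the tenth. Every class was more methylated at 4 h in 6 of 6 preparations (exact sign-flip permutation test, adjusted p = 0.031 for each). In promoters, here the noncoding sequence 250 to 51 bp upstream of start codons, the 4 h libraries lay between 49.7% and 54.2% with a median of 52.7%, against 47.7% to 52.7% with a median of 51.4% in the 3 h libraries. Promoters thus gained 1.51 ± 0.297 percentage points. Gene bodies, at 21.3% at 4 h and 19.9% at 3 h, gained 1.42 ± 0.109. The starts of genes gained 1.46 ± 0.144, the 3′ ends of genes 1.48 ± 0.188, Ty elements and LTRs 1.45 ± 0.143, the last 10 kb of chromosomes 1.39 ± 0.132, the rDNA repeat 1.42 ± 0.378 and the remaining sequence 1.52 ± 0.243. In promoters the earlier batch gained 1.34 percentage points and the libraries labelled EM shuffle 1.86, while the other classes named here gained 1.33 to 1.49 in the earlier batch.

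These classes differed widely in openness and little in what they gained. Only tRNA genes with 150 bp on each side and mitochondrial DNA stood above 2 percentage points. The tRNA class had 40.5% to 44.6% in the 4 h libraries with a median of 42.0%, against 37.8% to 41.9% with a median of 40.1% in the 3 h libraries, a gain of 2.36 ± 0.387 percentage points. Set against the other nuclear sites of the same preparations, the tRNA class gained 0.912 ± 0.294 percentage points more, in 6 of 6 preparations, and no other class had all preparations on 1 side. The exact sign-flip permutation p was 0.031 and became 0.313 over the 10 classes, so the difference did not pass. With 6 pairs, a class that reaches this p alone cannot pass, so the test does not settle the difference. In the earlier batch alone it was 0.861.

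Promoters and gene bodies changed places with the scale. Log2 odds were taken of each class mean, not site by site. The part played by mixing open and closed sites within a class was not tested. In percentage points, promoters exceeded the other nuclear sites by 0.0542 ± 0.218 and gene bodies fell short of them by a mean difference of -0.0776 ± 0.114, with preparations on both sides. In log2 odds, promoters changed less than the other sites in 6 of 6 preparations (-0.03 ± 0.0041) and gene bodies changed more in 6 of 6 (0.03 ± 0.004), each with an adjusted p of 0.0781 (exact sign-flip permutation test). After subtracting, for each site, the mean gain of nuclear sites with the same 3 h level, promoters were at -0.068 ± 0.0553, gene bodies at 0.0289 ± 0.0248, the rDNA repeat at -0.64 ± 0.491 and tRNA genes at 0.651 ± 0.296 percentage points, the lowest adjusted p being 0.156.

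**Figure D2:**
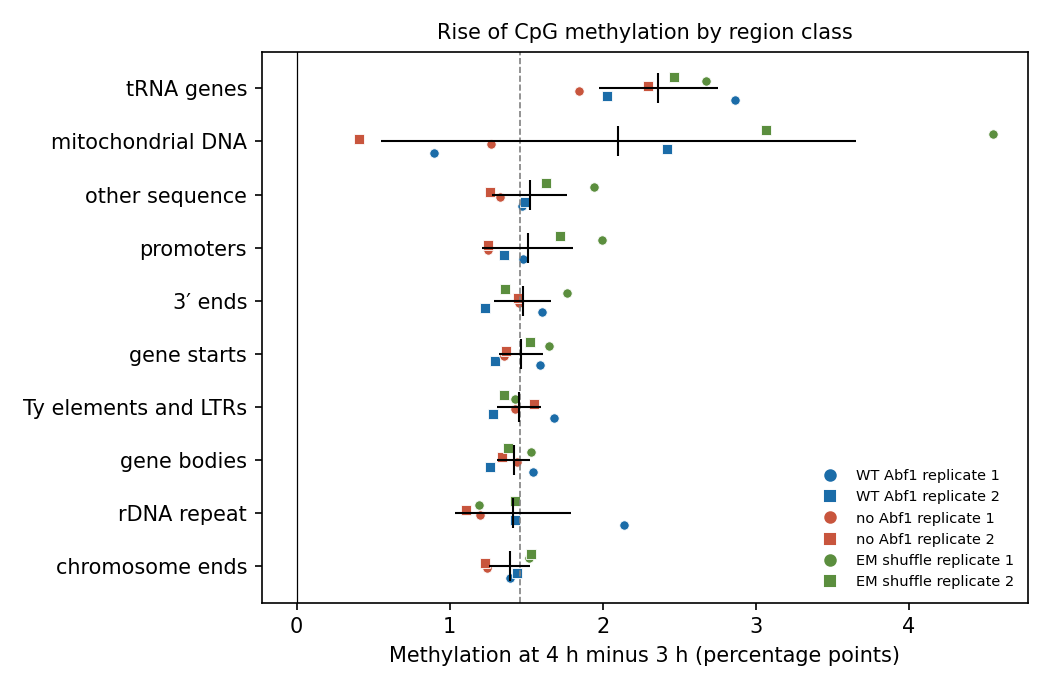
Difference 4 h minus 3 h in mean CpG methylation (percentage points, x axis) for the 10 classes of sequence (y axis). Each point is 1 preparation, black bars give the mean and SD (n = 6), and the dashed line is the nuclear average of 1.46; tRNA genes, at 2.36, have every preparation to its right.

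Within the tRNA class the gain was largest on the genes themselves. This finer division was chosen after the class values were seen, and its values are given without a test. The transcribed part of the 275 nuclear tRNA genes held 1658 CpG sites, at 38.5% to 43.2% in the 4 h libraries with a median of 39.9%, against 35.7% to 39.5% with a median of 37.2% in the 3 h libraries. Its gain was 3.68 and 2.53 percentage points in the WT Abf1 preparations, 2.50 and 2.89 in no Abf1, and 3.59 and 2.92 in the libraries labelled EM shuffle, with a mean of 3.02 ± 0.509. Every preparation thus lay above the nuclear average, by 1.56 ± 0.395, and above the gain expected from the 3 h level, by 1.12 ± 0.383.

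Along the genes the pattern was uneven. The first 25 bp of the transcribed part gained 3.76 ± 0.683 percentage points, the next 25 bp 3.12 ± 0.476 and the third 25 bp 2.43 ± 0.557. From -50 to -26 bp, where TFIIIB is known to sit, methylation was 10.1% at 4 h and 9.67% at 3 h, the lowest level of the profile, with the smallest gain of 0.441 ± 0.642. The steps from -100 to -51 bp and from -25 to -1 bp, on either side of it, gained between 2.63 and 3.13. Sites 1 to 75 bp downstream were far more open (69.0% at 4 h against 67.3% at 3 h) and gained 1.63 ± 0.254, and those more than 300 bp and up to 600 bp downstream gained 1.42 ± 0.208. Upstream, the gain was 1.99 ± 0.42 within 75 bp and 1.58 ± 0.137 beyond 300 bp.

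The B box contains the letters GTTCGA in most tRNA genes: they were found on the sense strand of 200 of the 275 genes (72.7%), and on either strand of 5.94% of all promoter windows, which are longer. The CpG inside these letters was less methylated than the other CpG sites of the genes, 28.8% against 41.9% at 4 h and 26.7% against 38.7% at 3 h. It gained 2.13 ± 0.514 percentage points, which was 1.01 ± 0.285 less than the 3.14 ± 0.518 of the other sites, and less in each of the 6 preparations. In the tRNA-Ala gene printed above, 8 of 9 CpG sites were higher at 4 h, from base 23 with a difference of 7.57 percentage points down to base 62 with -0.34. The 4 CpG sites at bases 51, 56, 62 and 68 had the lowest levels of the gene, 8.93% to 26.0% at 4 h against 9.27% to 19.0% at 3 h.

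**Figure D3:**
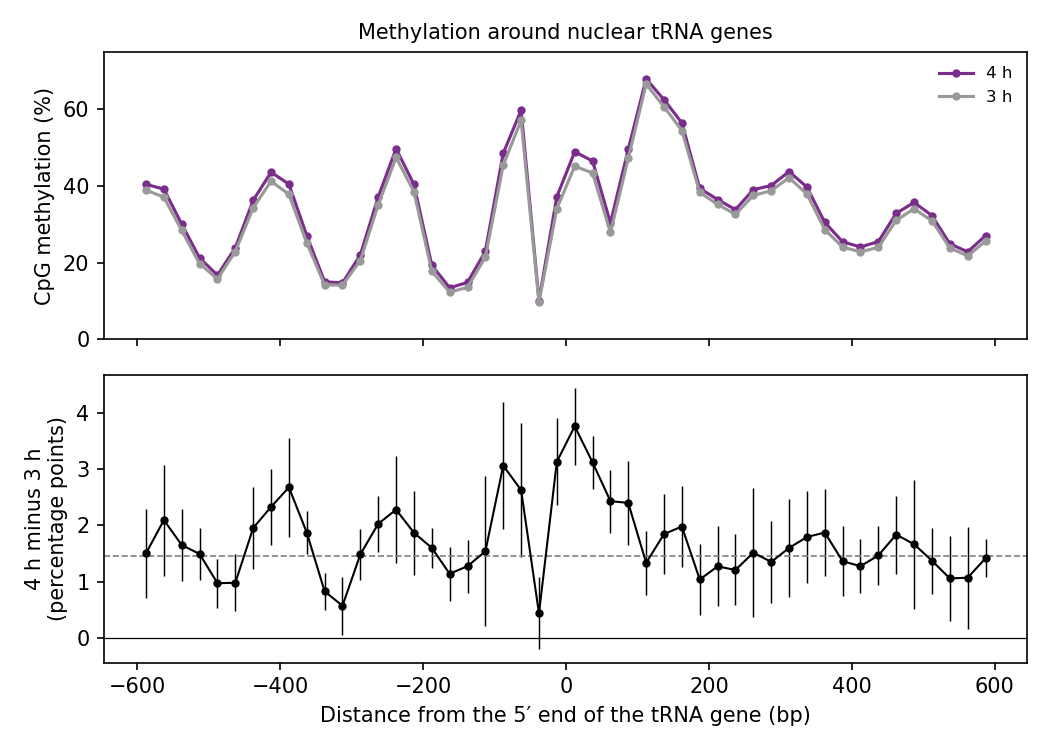
CpG methylation (%) around the 275 nuclear tRNA genes at 4 h and 3 h (top) and the difference 4 h minus 3 h with its SD over 6 preparations (bottom), in 25 bp steps of distance from the 5′ end of the gene on the x axis. The dashed line is the nuclear average of 1.46 percentage points; the step from 0 to 24 bp is at 3.76 and the step from -50 to -26 bp at 0.441.

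All 20 groups of tRNA genes by amino acid had a mean gain above the nuclear average. Among groups with at least 100 sites, tRNA-Lys (21 genes) gained 3.72 ± 1.93 percentage points, tRNA-Arg (19 genes) 3.63 ± 1.34 and tRNA-Gly (21 genes) 1.96 ± 0.792, each in 6 of 6 preparations. The spread between preparations was too large to order the groups. Gene by gene, tRNA windows with 150 bp on each side were tested, a step also chosen after the class values were seen. A quasi-binomial model called 25 of 273 tRNA windows higher at 4 h and 0 lower (9.16%, tested against no change, Benjamini-Hochberg adjusted p under 0.05). Against the nuclear average change the same model called 0, with 15 windows (5.49%) at an unadjusted p under 0.05, of which 14 were higher. That total is close to the share chance gives at this threshold. The lowest p belonged to the tRNA-Ala gene YNCK0008W, at 27.4% to 36.5% with a median of 31.7% in the 4 h libraries and at 22.6% to 33.1% with a median of 25.8% in the 3 h libraries, higher in 5 of 6 preparations, with a log2 odds change of 0.40 ± 0.0959 (SE). The tRNA-Asn gene YNCC0005W followed with 67.0% at 4 h against 61.2% at 3 h, higher in 6 of 6 preparations, and a log2 odds change of 0.35 ± 0.0835 (SE; adjusted p = 0.0044 for both in the model).

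Other genes read by RNA polymerase III were few and noisier. SNR6 gained 4.60 ± 3.30 percentage points over its 5 CpG sites (54.1% at 4 h against 49.5% at 3 h), with all 5 sites higher and 2.79 in the earlier batch. RPR1, the RNA of RNase P, gained 3.49 ± 2.56, and SCR1, the RNA of the signal recognition particle, 3.23 ± 3.91 with 0.85 in the earlier batch. The 5S rRNA genes of the rDNA repeat did not follow, with a mean change of -0.174 ± 1.58 over 14 sites and 2 of 6 preparations higher. The 5S variant genes outside the repeat changed by 2.93 ± 6.28 over 28 sites, with 5 of 6 preparations higher. The ETC sites, which bind TFIIIC without the polymerase, changed by 0.498 ± 1.97. None of these had all preparations above the nuclear average.

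Around the start codons of 6002 protein-coding genes the gain followed the landscape only loosely. Methylation at 3 h peaked at 57.5% from -150 to -141 bp, over the nucleosome-depleted region, and had its upstream minimum of 19.8% just before the start codon. Over 160 steps of 10 bp the gain stayed between 1.10 and 1.89 percentage points. Across these steps, which share the same libraries and neighbouring genes, it correlated with the 3 h level at r = 0.378. By intervals of 100 bp, the open stretch from -200 to -101 bp was at 56.2% at 4 h against 54.7% at 3 h and exceeded the nuclear average gain by 0.0736 ± 0.238. The interval from 200 to 299 bp into the coding sequence exceeded it by 0.181 ± 0.115 in 6 of 6 preparations, and that from 300 to 399 bp was below it by a difference of -0.0977 ± 0.079 in 6 of 6. No interval passed the exact sign-flip permutation test (lowest adjusted p = 0.167). A single interval cannot pass after adjustment with 6 pairs, so the test does not show equal gains.

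**Figure D4:**
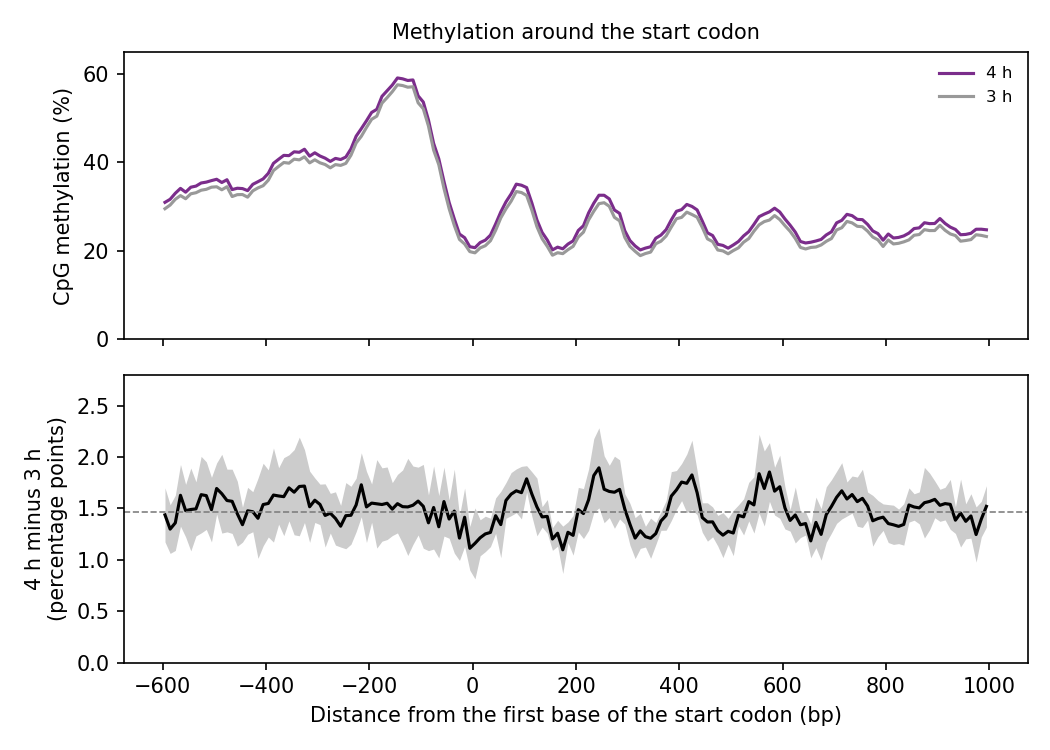
CpG methylation (%) at 4 h and 3 h (top) and the difference 4 h minus 3 h in percentage points (bottom; line, mean; grey, SD over 6 preparations) by distance from the start codon, over 6002 genes in steps of 10 bp. The dashed line marks the nuclear average of 1.46; the difference stays between 1.10 and 1.89 although the level at 3 h reaches 57.5%.

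Of 5846 promoter windows with at least 2 CpG sites, 8 were called higher at 4 h and 0 lower (0.137%; quasi-binomial model with preparation and time, Benjamini-Hochberg adjusted p under 0.05, tested against no change). The median promoter window had a log2 odds change of 0.10 with a median SE of 0.11, 79.9% lay above 0, and 837 had an unadjusted p under 0.05. Tested against the nuclear average change, the model called 0 windows (lowest adjusted p = 0.18). An unadjusted p under 0.05 was reached by 342 (5.85%, 156 higher and 186 lower), close to the share chance gives. Of the 8, the windows of TAR1 and YLR154C-G lie inside the rDNA repeat, with at least 15642 calls in every library and log2 odds changes of 0.08 and 0.09, below the nuclear average change.

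GLK1, whose product phosphorylates glucose in the first step of glycolysis, had the largest promoter change in odds among the 8. Its window, printed above, was at 55.8% to 72.6% in the 4 h libraries with a median of 63.3%, against 45.02% to 66.3% with a median of 54.3% in the 3 h libraries. The groups overlapped, but every pair rose, by 5.57 to 11.5 percentage points (7.88 in the earlier batch and 10.7 in the libraries labelled EM shuffle), a log2 odds change of 0.53 ± 0.0788 (SE; adjusted p = 0.0036 in the model against no change, 0.18 against the nuclear average change). All 13 of its CpG sites were higher at 4 h, by 3.04 to 15.8 percentage points. The largest difference fell on the CpG at base 22, with 80.1% at 4 h and 64.4% at 3 h. A short reading frame annotated over the same DNA, YCL042W, also appears below.

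The windows of NHP6A and SMK1, a meiotic MAP kinase gene on the other strand, are largely the same DNA. NHP6A was at 63.1% to 77.6% in the 4 h libraries with a median of 65.5%, against 50.99% to 74.4% with a median of 60.8% in the 3 h libraries, with 17 of 17 CpG sites higher. Its difference of 6.47 ± 3.66 percentage points was 10.8 in the libraries labelled EM shuffle and 4.29 in the earlier batch. AGE2 (an ARF GTPase-activating protein) differed by 7.94 ± 3.02, NHP2 (a protein of H/ACA small nucleolar particles) by 7.30 ± 2.19 and LYP1 (the lysine permease) by 5.98 ± 2.86 percentage points. In the earlier batch alone these differences were 6.83, 6.49 and 5.14, against 10.2, 8.92 and 7.65 in the libraries labelled EM shuffle. All 5 of these windows were higher in 6 of 6 preparations, with adjusted p between 0.0194 and 0.041 in the model. The count of 8 depended on single preparations, falling to 5 without WT Abf1 replicate 1, 4 without no Abf1 replicate 1, 4 and 3 without replicate 1 and replicate 2 labelled EM shuffle, and 0 in the earlier batch alone.

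At the other end of the promoter test were windows that were lower at 4 h in most pairs, none of them called. MUP3, a methionine permease gene, had 63.1% at 4 h and 67.7% at 3 h, lower in all 6 pairs, and a log2 odds change of -0.37 against the nuclear average. The divergent genes ABF2 (the packaging protein of mitochondrial DNA) and TVP18 (a Golgi protein) share a window of 5 CpG sites at 79.3% at 4 h and 83.4% at 3 h, again lower in all 6, with a log2 odds change of -0.51. ODC2 (a mitochondrial dicarboxylate carrier) was at -0.38 and APL3 (an AP-2 adaptor subunit) at -0.49 with 5 of 6 pairs lower each. YEH1, a steryl ester hydrolase gene, completed the windows of lowest p on the higher side with 0.50. The adjusted p of these windows was 0.567 or 0.657.

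Gene bodies were called far more often than promoters. With a median of 36 CpG sites and 2206 calls per library, 2317 of 5984 gene bodies were called higher at 4 h and 0 lower against no change (38.7%; same model), and 96.1% had a log2 odds change above 0, with a median of 0.12 and a median SE of 0.06. Against the nuclear average change 0 were called, with 354 (5.92%) at an unadjusted p under 0.05 (266 higher, 88 lower). That change is one of the mean over all nuclear sites, and its match to gene bodies was not tested. The lowest p values on the higher side belonged to MLP1 (a nuclear basket protein; 20.3% at 4 h against 17.9% at 3 h), YCL042W (47.4% against 40.9%), TPS1 (trehalose 6-phosphate synthase; 25.0% against 21.4%), YGL176C (22.8% against 19.5%) and TIM44 (mitochondrial protein import; 19.5% against 16.6%), each higher in 6 of 6 preparations. On the lower side they belonged to MFT1 (a THO complex subunit; 23.99% at 4 h against 25.7% at 3 h, lower in 6 of 6), YEL077C, PAU11, VPS62 and YMR244W, with log2 odds changes of -0.09 to -0.26 against the nuclear average. None of the 10 passed, with adjusted p of 0.717 or 0.734.

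At the 3′ ends of genes, windows ran from the last 200 bp of coding sequence to 150 bp past the stop codon. Against no change, 23 of 5989 windows were called higher and 0 lower (0.384%, same model). Against the nuclear average change 0 were called, with 318 (5.31%) at an unadjusted p under 0.05. The largest support was again in the rDNA windows of TAR1 and YLR154C-G. Next came FIT1, a cell wall mannoprotein that holds iron siderophores, with 18.8% to 26.9% in the 4 h libraries and a median of 25.5%, against 15.6% to 22.2% and a median of 20.2% in the 3 h libraries. FRE1, the ferric reductase, differed by 5.70 ± 1.09 percentage points and MMF1, a mitochondrial matrix protein gene, by 6.88 ± 3.21, both in 6 of 6 preparations. IML2 was at 28.4% against 23.3% and YIL102C at 27.7% against 21.2%. On the lower side, the windows of lowest p were YLR179C, YLR154C-H, LDO16 with LDO45 (lipid droplet proteins, 1 shared window) and YLR302C, with log2 odds changes of -0.19 to -0.29 against the nuclear average and 1 or 2 of 6 preparations higher.

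The gene groups below were described by their counts and medians, with no test of a difference from other genes. The list called seripauperin also holds DAN and TIR genes, such as DAN4 and TIR1, beside the PAU genes. Of 138 promoters of cytosolic ribosomal protein genes, 0 were called and 106 lay above 0, with a median level of 73.0% at 4 h against 70.7% at 3 h, beside 49.8% and 48.2% over all promoters, and a median log2 odds change of 0.11, beside 0.10 over all promoters. Glycolytic genes had 1 of 18 promoters called, GLK1, beside 0.137% of all promoter windows, with 17 above 0 and a median of 0.17. Among them TDH2, a glyceraldehyde-3-phosphate dehydrogenase gene, had 22.0% at 4 h and 15.5% at 3 h without being called.  None of the promoters was called among 11 histone genes (median 0.14), 20 PHO genes of phosphate regulation (0.07), 8 GAL genes (0.17), 26 heat shock genes (0.13), 6 general regulatory factor genes (0.13), 30 seripauperin genes (0.14), 12 COS genes (0.08), 15 hexose transporter genes (0.10), 65 mitochondrial ribosomal protein genes (0.06) and the 2 promoters of the silent mating loci with enough sites (0.20). Gene bodies were called, beside 38.7% of all, for 14 of 135 ribosomal protein genes, 11 of 21 glycolytic, 11 of 20 PHO, 7 of 9 GAL, 10 of 27 heat shock, 8 of 16 hexose transporter and 5 of 6 general regulatory factor genes, and for 2 of 11 histone, 3 of 30 seripauperin, 4 of 12 COS, 15 of 67 mitochondrial ribosomal protein and 0 of 4 silent mating genes. The part of gene length in these counts was not tested. At 3′ ends, beside 0.384% of all windows, 2 of 138 ribosomal protein genes (RPL16B and RPS21B) and 1 of 8 GAL genes (GAL83) were called, and 0 in the other lists. Against the nuclear average change, 0 windows of any of the 12 lists were called in promoters, bodies or 3′ ends, where the model called 0 in all.

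The outermost 2 kb of chromosomes had lower mean gains than the interior, by differences that did not pass the test. With 6 pairs a single interval cannot pass it after adjustment. The outermost 1 kb, made of telomeric and subtelomeric repeats whose reads may be shared between ends, was at 25.9% at 4 h against 24.8% at 3 h, a gain of 1.04 ± 0.298 percentage points. From 1 to 2 kb the gain was 1.17 ± 0.255, from 2 to 5 kb 1.36 ± 0.181, from 5 to 10 kb 1.52 ± 0.172 and from 10 to 20 kb 1.38 ± 0.137. Against sites more than 50 kb from an end, the first 2 intervals differed by -0.425 and -0.29 percentage points, with 1 and 0 of 6 preparations higher (exact sign-flip permutation test, adjusted p = 0.188 each). There was no steady gradient, since the interval from 5 to 10 kb was above the interior by 0.062 with 5 of 6 preparations higher and that from 10 to 20 kb differed by -0.0866 with 1 of 6 higher. Of the silenced mating loci near the ends of chromosome III, HML gained 1.85 ± 0.837 and HMR 0.991 ± 1.29, while the expressed MAT locus gained 1.34 ± 0.938.

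The rDNA repeat (chrXII:451786-468931 for the 2 copies in the reference) was covered 44.9 to 61.3 times as deeply as the nuclear median, since the many genomic copies fall on 2. Single sites were therefore well measured, and 95.8% of its 709 sites had a higher mean at 4 h. Methylation was 46.6% to 49.97% in the 4 h libraries with a median of 48.8%, against 45.4% to 48.5% with a median of 47.2% in the 3 h libraries. The gain was 1.39 ± 0.443 percentage points in the 25S gene, 1.61 ± 0.738 in the 18S gene, 1.40 ± 0.595 in the transcribed spacers with the 5.8S gene, and 1.44 ± 0.184 in the non-transcribed spacers, which were less open (36.5% at 4 h against 35.03% at 3 h). No part passed the exact sign-flip permutation test against the nuclear average gain (lowest adjusted p = 0.469, for the 5S genes). With 6 pairs a single part cannot pass after adjustment, so the test does not show equal gains. The 5S genes differed from the nuclear average by -1.63 ± 1.69 percentage points, with 1 of 6 preparations higher.

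Mitochondrial DNA gained most unevenly. It was covered 20.0 to 92.7 times as deeply as the nuclear median, and its methylation was 66.8% to 76.8% in the 4 h libraries with a median of 73.9%, against 62.2% to 75.9% with a median of 72.7% in the 3 h libraries. The gain of 2.10 ± 1.55 percentage points was made of 0.901 and 2.42 in WT Abf1, 1.27 and 0.407 in no Abf1 and 4.55 and 3.07 in the libraries labelled EM shuffle. The earlier batch alone gave 1.25, below its nuclear gain of 1.41. Of 1004 sites, 997 had a higher mean at 4 h. Within pairs, 655 and 894 sites were higher in WT Abf1, 785 and 589 in no Abf1 and 1003 and 1000 in the libraries labelled EM shuffle.

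The gain was spread over the mitochondrial genome. Sites between genes gained 2.23 ± 1.55 percentage points, the large rRNA gene 21S_RRNA 2.21 ± 1.66 and COX1, which codes for a cytochrome oxidase subunit, 2.12 ± 1.54, each in 6 of 6 preparations. The small rRNA gene 15S_RRNA gained 1.51 ± 1.59 and COB, the cytochrome b gene, 1.34 ± 1.59, with 5 and 4 of 6 preparations higher. Over the 13 genes with at least 10 sites, several of which are intron reading frames nested in COX1 or COB, gains ran from 1.10 to 2.40 percentage points at 3 h levels of 70.9% to 77.8%.

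The plasmid pUC19-ftz was added naked at 90 min and was therefore present at both times. Its reference is described in parts. Over positions 1 to 3000 of its reference, a range chosen after the values were seen, methylation was 91.8% ± 1.66 at 4 h and 92.5% ± 1.39 at 3 h, a change of -0.698 ± 0.588 percentage points (SD, n = 6) with 1 of 6 preparations higher. Beyond position 3500 it was 79.7% ± 9.78 at 4 h and 77.8% ± 12.99 at 3 h, a change of 1.89 ± 3.37 with 4 of 6 preparations higher. All 4 of these belonged to the earlier batch, at 73.4% at 4 h against 69.5% at 3 h, and in the libraries labelled EM shuffle these positions were at 92.2% against 94.5%. At positions covered almost only at 4 h, the plasmid pFMP233, present for the last 60 min, reached 84.5% ± 0.215 in the 4 h aliquots of the earlier batch and 85.4% ± 3.10 in those of the later batch. In the 3 h aliquots these positions had as few as 54 calls in a library, against at least 50099 at 4 h. Those 3 h calls averaged 29.7% methylated in the earlier batch and 87.3% in the later batch, and their source was not tested.

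**Figure D5:**
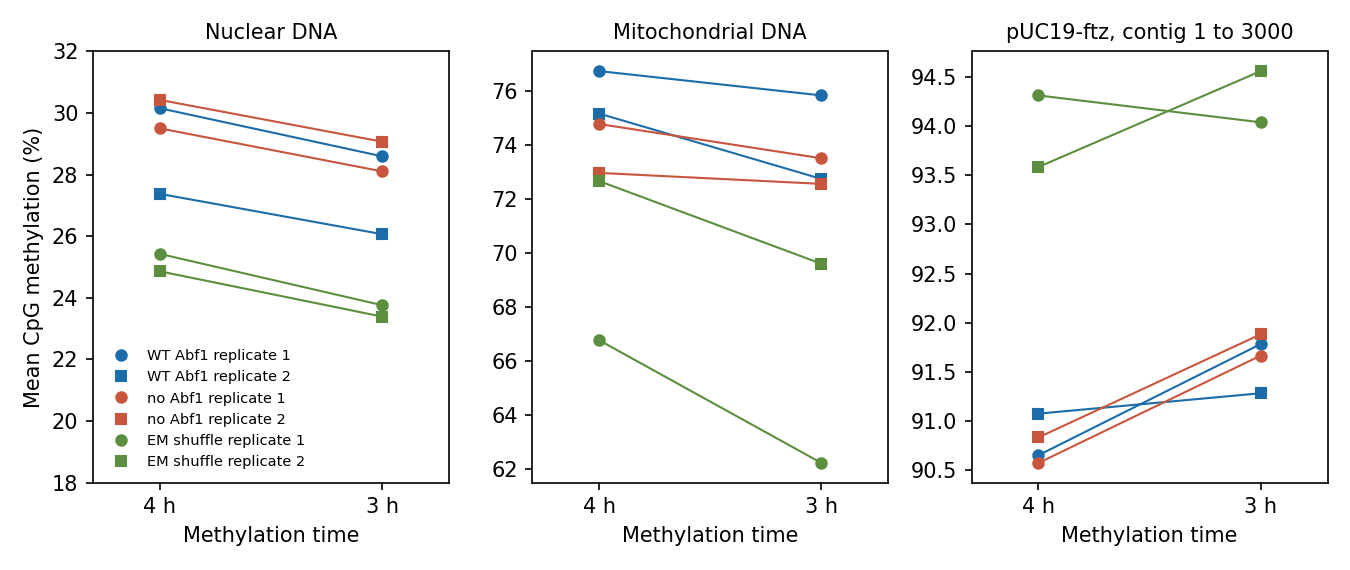
Mean CpG methylation (%) of nuclear DNA, mitochondrial DNA and positions 1 to 3000 of pUC19-ftz in the 4 h and 3 h libraries, with lines joining the aliquots of a preparation; the y axes do not start at 0 and differ between panels. Nuclear and mitochondrial values are higher at 4 h in 6 of 6 preparations and values of this plasmid range, chosen after they were seen, in 1 of 6; beyond position 3500, not drawn, 4 of 6 were higher.

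The change from 3 h to 4 h was then compared between constructs. Of 5846 promoter windows, 0 had a change that differed between the 3 constructs at an adjusted p under 0.05. The test was an F test of the time by construct interaction in the same model. An unadjusted p under 0.05 was reached by 312 windows (5.34%), and the lowest adjusted p was 0.428. That lowest p belonged to CMC4, with log2 odds changes of 0.02 in WT Abf1, 0.58 in no Abf1 and -0.37 in the libraries labelled EM shuffle. For the nuclear average, permuting exactly which preparations belong to which construct gave p = 0.467, where 0.067 is the smallest possible.

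Mean gains differed little with the base on each side of a CpG. Sites in the context GCGC gained 1.72 ± 0.167 percentage points (28.7% at 4 h against 27.0% at 3 h), 0.272 ± 0.0833 more than all other nuclear sites, and 0.248 ± 0.0859 more than sites of the same 3 h level, in 6 of 6 preparations. Sites in ACGG gained 1.38 ± 0.136 and were lower than the others by a difference of -0.0886 ± 0.0204 in 6 of 6. Neither passed the exact sign-flip permutation test over the 10 contexts (adjusted p = 0.0781, and 0.0521 at the same 3 h level).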

How the data were processed

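ODM-seq (occupancy measurement by DNA methylation) was analysed in 12 libraries, 6 aliquots at 4 h and 6 at 3 h. Per the study's methods, the authors called bases and 5-methylcytosine with Dorado, aligned reads to sacCer3 (R64) with minimap2 2.17, sorted and indexed them with SAMtools 1.9 and 1.15, summarised calls with modkit, and worked in R 4.2.0. The deposited files give, per strand and position, the methylated fraction as a ratio to a correction factor (it exceeds 1 at up to 1.63% of positions), an occupancy score of 1 minus that value, the count of valid calls, and the factor. The authors divided the fraction by this factor, the genome average of a construct over that of WT Abf1 (0.871 to 1.04). Fraction, factor and calls were multiplied back to whole methylated calls (100% of positions came out whole within the rounding of the deposited 4 decimals). Both strands of a CpG were added, and sites with at least 5 calls in every library were kept. A site counts once in a mean, whatever its depth, and counting error at a median of 32 to 94 calls per site limits single sites, so calls were summed over windows.

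Aliquots were paired because they came from 1 reaction. Deviations of same-numbered libraries from their construct's mean at each time correlated at 0.0269, 0.0121 and 0.0984 across promoter windows for WT Abf1, for no Abf1 and for EM shuffle. In units of counting variance, squared site differences within a pair averaged 1.05 to 1.09 (1.04 to 2.16 over all 66 pairs of libraries). Differences over sites were tested with two-sided exact sign-flip permutation over the 6 pairs. Windows were tested with a quasi-binomial logistic model (pseudocount 0.5, preparation and time, dispersion moderated by the squeezeVar function in limma 3.58.1, R 4.3.3), against no change or with the nuclear change of each preparation as offset, with Benjamini-Hochberg adjustment over all windows. On simulated promoter data, 87.5% of 200 windows with a log2 odds change of 0.5 and 100% of those with 1 were recovered, with 0 calls where nothing changed. Window genes named are the 5 of lowest p on each side of the offset test, since none passed, besides all called promoters and examples from 12 gene lists. Members and lists were chosen with earlier results of these data known. Annotation and sequences are RefSeq R64. Python 3.11.15 was used for the remaining steps. Alternatives were another coverage minimum, pooled calls, the authors' factor, other bands and scales, other window rules, limma, unpaired tests, single preparations left out, and the earlier batch alone. A further plasmid reference, whose role the sources do not state, was not used here.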

Additional observations from a re-analysis of the deposited data

Results flagged for a closer look

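In the rDNA repeat, the gain of WT Abf1 replicate 1 was far from the others, at 2.14 percentage points, where the other 5 preparations averaged 1.27. Of 45 results examined in this way, 1 was marked, and chance marks about 1 in 20.

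In 9 cases, from 45 results each compared between 3 constructs, both preparations of a construct moved one way and both of another the opposite way. Opposite signs like these also arise by chance with 2 preparations each, and how many to expect was not computed. Mitochondrial DNA, the rDNA repeat and pUC19-ftz each supply several of the 9. With 2 preparations each these differences were not tested, and for the libraries labelled EM shuffle construct and batch cannot be told apart. Mitochondrial DNA, set against the nuclear gain, was at -0.538 percentage points in no Abf1 and at 2.24 in the libraries labelled EM shuffle, a difference (no Abf1 minus EM shuffle) of -2.78. Set against the gain expected from the 3 h level, it was at -0.406 in no Abf1 and 1.43 in EM shuffle, a difference of -1.83. The mitochondrial coverage moved with it, since the median calls per site were 4072 and 5285 in the 4 h libraries labelled EM shuffle, against 1070 to 2368 in the other 4 h libraries, and its part in the result was not tested. The rDNA repeat, set against the other nuclear sites, was at 0.35 in WT Abf1, -0.225 in no Abf1 and -0.26 in the libraries labelled EM shuffle, so that WT Abf1 differed by 0.575 from no Abf1 and by 0.61 from EM shuffle. On the same measure, no Abf1 minus EM shuffle was 0.296 in Ty elements and LTRs (0.114 and -0.183), -0.455 in promoters (-0.137 and 0.318) and -0.328 in the remaining sequence (-0.0877 and 0.24).

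Positions beyond 3500 of the pUC19-ftz reference changed by 3.59 percentage points in WT Abf1 and 4.30 in no Abf1, but by -2.23 in the libraries labelled EM shuffle, differences of 5.82 and 6.52. In the earlier batch they were at 73.4% at 4 h against 69.5% at 3 h, and in the later batch at 92.2% against 94.5%.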

How the results depend on the processing

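Of 920 alternative values, 875 kept their direction, their side of the threshold and, for counts, their size. Without the replicate block, that is with time labels permuted within constructs and the pairing ignored, the gains keep their size and no longer pass: 2.10 in mitochondrial DNA, 1.42 in the rDNA repeat, 1.39 at chromosome ends, 2.36 in tRNA genes, 1.45 in Ty elements and LTRs, 1.51 in promoters, 1.46 at gene starts, 1.48 at 3′ ends, 1.42 in gene bodies and 1.52 elsewhere (adjusted p from 0.0694 to 0.241, exact permutation). The same holds, unpaired, for the bands of 3 h level from 0 to 90%, at 0.692, 1.23, 1.65, 2.02, 2.15, 2.18, 2.07, 1.59 and 0.989, and for both contrasts, 1.40 and 1.12 (0.0833 to 0.148). The block changed no other call except the count of promoters called against no change, which was 4 without the replicate block, 0 with limma on logit differences, 0 in the earlier batch, and 3 to 7 with single preparations left out.

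Bands cut on the library's own 3 h level, whose counting noise then enters both the band and the difference, gave 3.26, 2.11, 0.715, 0.158, 0.289, 0.633, 1.07, 0.463 and -2.10 from 0 to 90%, with contrasts of -2.86 and 3.01. Bands cut on the 4 h level of the same preparation gave the mirror image at the ends, -1.93 below 10%, 0.0683 from 10 to 20% and 7.10 above 90%, with -0.918 for the middle minus the open end. Dividing by the authors' factor brought the band above 90% past the threshold, at 0.625. With 6 pairs no exact p can go below 0.031, so adjusted values over 10 classes cannot pass unless most classes reach it. The same limit held for the start-codon intervals, the chromosome-end intervals, the parts of the rDNA repeat and the base contexts. At a median SE of 0.11 in log2 odds, a promoter change as small as the nuclear average was not detectable.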

Other observations

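Among other chromosomal features, replication origins and centromere flanks gained close to the nuclear average of 1.46 percentage points, while centromeres and snoRNA genes had lower means. Replication origins, the most open of these, were at 41.5% at 4 h against 39.9% at 3 h and gained 1.56 ± 0.28 (SD, n = 6). The 1000 bp on each side of centromeres gained 1.55 ± 0.414, while the 26 CpG sites of the centromeres themselves, covered by the kinetochore and its special nucleosome, were at 13.97% at 4 h against 12.8% at 3 h, higher in 4 of 6 preparations. snoRNA genes gained 1.17 ± 0.307, with 1 of 6 preparations above its nuclear average. These features were chosen after the class values were seen, and their values carry no test.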
